A study of Mus musculus with 9 samples.

Results

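The genes described here were Itgax and 9 genes that mark macrophages, Itgam, Cd68, Csf1r, Adgre1, C1qa, C1qb, C1qc, Mrc1 and Cd163, in the testis of mice with and without the transcription factor RFX2. They were 10 of the 23074 genes of the count table, found by their Ensembl IDs through GENCODE M21 names, and all 10 were among the 15613 genes tested. Itgax was chosen by the counts themselves, because they were higher in the Rfx2-/- libraries, so its difference between genotypes is described here without a test. The other 9 were listed by name, to ask whether Itgax moved together with other genes of myeloid cells.

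RNA-seq libraries were made from decapsulated testes of 5 wild type and 4 Rfx2-/- mice, 1 library per mouse, at postnatal day 29 to 30. All mice were of a mixed C57BL/6, 129/Sv and FVB/N background. The Rfx2-/- mice carried a germline deletion of exon 7 of Rfx2, made by crossing a floxed allele to a Cre line that is active in all tissues, so the deletion was in macrophages and other somatic cells as well as in germ cells.

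Macrophages lie between the seminiferous tubules, next to Leydig cells, and over the peritubular layer, and few leukocytes enter the tubules. Testicular macrophages depend on signalling through the receptor CSF1R, and they take up debris, make complement C1q and support steroid synthesis in Leydig cells. Itgax encodes integrin alpha X (CD11c), the surface marker most used for dendritic cells, which is also found on some macrophages and other leukocytes. It reaches the cell surface as a pair with the beta2 chain encoded by Itgb2, which is shared with the alpha chains encoded by Itgam (CD11b), Itgal (CD11a) and Itgad (CD11d). RFX proteins bind the X-box motif and are best known as activators of genes for cilia.

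Itgax (ENSMUSG00000030789) lies on the forward strand of GRCm38 chromosome 7 at chr7:128129547-128150657, with Itgam before it at chr7:128062640-128118491 and Itgad after it. Of the other members, Cd68 lies on chr11:69664213-69666153, Mrc1 on chr2:14229392-14332057, Adgre1 on chr17:57358691-57483527, Cd163 on chr6:124304656-124330527 and the C1q genes together on chromosome 4. The bases just before the start of Itgax and of its neighbour Itgam are shown because these adjacent genes belong to 1 family and gave different values in the Rfx2-/- libraries. The sequences are from RefSeq (GRCm38.p6, forward strand, chr7:128129300-128129546 and chr7:128062390-128062639), and capitals mark matches to the motifs searched.
Itgax: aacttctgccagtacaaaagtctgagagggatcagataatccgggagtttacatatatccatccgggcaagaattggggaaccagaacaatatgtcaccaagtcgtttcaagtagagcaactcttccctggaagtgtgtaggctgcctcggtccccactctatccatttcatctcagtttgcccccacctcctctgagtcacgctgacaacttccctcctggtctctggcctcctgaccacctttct
Itgam: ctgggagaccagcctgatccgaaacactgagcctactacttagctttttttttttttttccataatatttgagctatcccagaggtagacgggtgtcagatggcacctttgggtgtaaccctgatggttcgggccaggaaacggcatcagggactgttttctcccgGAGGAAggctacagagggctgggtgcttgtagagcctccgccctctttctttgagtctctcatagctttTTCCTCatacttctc
The motifs searched on both strands were GTTGCC and GTTACC, each 1 arm of an X-box, and GAGGAA. The last is 1 form of the site bound by PU.1, a transcription factor of myeloid cells. The shorter core GGAA was not searched, and the Itgax window holds it too. None of the motifs searched occurred in the Itgax window. In the Itgam window GAGGAA occurred 2 times. The matches started 84 bases before the gene on the forward strand and 15 bases before it on the reverse strand. RefSeq promoters were matched for 7 of the 10 members, all but Csf1r, Adgre1 and C1qa. In windows of up to 250 bases, GAGGAA was present in 5 of the 7, Itgam, Cd68, Mrc1, C1qb and C1qc, and an X-box arm in 1 of the 7, Cd68. Among all 32851 promoters with 250 bases each, 23.3% held GAGGAA and 15.7% held an X-box arm. These matches describe letters only, and binding was not measured here.

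Rfx2-/- replicate 1 was sequenced deepest, with 28800855 counts, and the other 8 libraries held 13574764 to 15193330. Levels are given in CPM, read counts relative to a library size corrected by TMM (the trimmed mean of M values), or in RPKM, the same per kb of exon, and 3 counts, the limit that a count of 0 allows, correspond to 0.0996 to 0.234 CPM. Rfx2 was 471 to 624 CPM in wild type and 61.5 to 199 CPM in Rfx2-/- libraries. Genes of spermatids, Sertoli cells and Leydig cells were present in all 9 libraries, with Acrv1 at 101 RPKM or more, Clu at 326 or more and Cyp17a1 at 126 or more. Rfx2-/- replicate 2 stood apart from all other libraries by gene length. Against the wild type mean its median log2 deviation was 0.67 over 1568 genes with under 1.3 kb of exons and -0.70 over 3128 genes with over 5.5 kb. The members range from 1.04 kb for C1qa to 5.374 kb for Mrc1, and values without this library are given beside those that it moved most.

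Itgax was low in wild type testis and higher in every Rfx2-/- library. The wild type libraries held 1.3, 0.465, 2.26, 1.33 and 1.01 CPM, which were 6 to 34 reads each. The Rfx2-/- libraries held 16.5, 8.36, 17.5 and 16.4 CPM, or 125 to 497 reads. All 4 Rfx2-/- values were above all 5 wild type values, and replicate 2, with 8.36 CPM, was the lowest of the 4. The means were 1.27 ± 0.65 CPM (SD, n = 5) and 14.7 ± 4.25 CPM (SD, n = 4), and the log2 fold change was 3.50 with an SE of 0.35 (3.69 ± 0.27 without replicate 2). No p-value is given for this difference because it chose the gene.

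**Figure D1:**
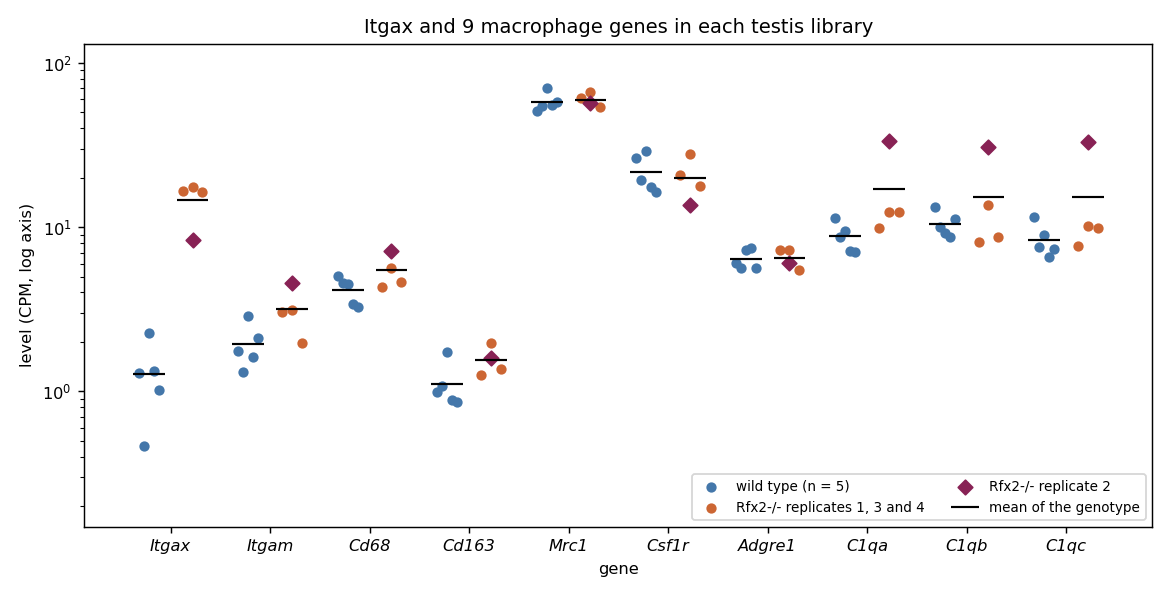
Level of Itgax and of the 9 macrophage genes in each library, in CPM on a log axis, with points for single mice and lines for the genotype means (n = 5 wild type, n = 4 Rfx2-/-). The genotypes are apart for Itgax and overlap for each of the 9 other genes, and Rfx2-/- replicate 2 (diamonds) is the highest library for C1qa, C1qb and C1qc.

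The 9 macrophage genes gave no change that passed the test. With edgeR's quasi-likelihood test, 0 of 9 were called at an adjusted p at or under 0.01 and over 2-fold, against 4.51% of all genes tested (0.826% higher and 3.68% lower), and DESeq2 also called 0 of 9. At an unadjusted p under 0.05, 3 of the 9 were higher in Rfx2-/- and 0 lower, where 13.9% of all genes were higher and 13.7% lower. None of the 9 had all Rfx2-/- libraries above all wild type libraries, against 6.16% of all genes, and none had all below, against 9.70%. The log2 fold change was above 0 for 8 of the 9, against 53.1% of all genes, and its median was 0.46, against 0.03 over all genes tested. The median was 0.13 without Rfx2-/- replicate 2, where 1 of the 9 had an unadjusted p under 0.05. In whole testis, a change in the number of cells of a type and a change in the RNA per cell cannot be told apart.

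Among the members with a role in adhesion and uptake, Itgam, the alpha chain of the complement receptor on macrophages and neutrophils, is the nearest relative of Itgax in this list. Its levels were 1.76, 1.32, 2.86, 1.62 and 2.11 CPM in wild type and 3.02, 4.55, 3.14 and 1.96 CPM in Rfx2-/-. Of the 4 Rfx2-/- libraries 3 were above every wild type library, and replicate 4 was inside the wild type range. The log2 fold change was 0.70 (SE 0.28, adjusted p = 0.135 with edgeR) and 0.49 (SE 0.27, adjusted p = 0.263) without replicate 2. In the GENCODE M21 annotation 68.49% of the windows of 50 bases of Itgam are also in the transcript of Gm49368. That gene overlaps Itgam and has no row in the count table, so reads of both were not told apart there. The count of Itgam is thus less certain than those of genes with sequence of their own.

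Cd68, a glycoprotein of lysosomes, had 5.05, 4.57, 4.52, 3.39 and 3.27 CPM in wild type and 4.32, 7.15, 5.66 and 4.64 CPM in Rfx2-/-. The genotypes overlapped, with a log2 fold change of 0.38 (SE 0.21, adjusted p = 0.257 with edgeR). Mrc1, the mannose receptor CD206 of tissue macrophages, was the member with the highest level per kilobase in wild type. Its Rfx2-/- mean was below those of the 3 C1q chains, but replicate 2 was the only Rfx2-/- library with that order. There Mrc1 was at 10.5 RPKM and C1qa, C1qb and C1qc at 32.1, 28.1 and 27.5. In replicate 1 Mrc1, at 11.4 RPKM, was above all 3, at 9.52, 7.45 and 6.35. Mrc1 held 50.6, 54.3, 70.1, 55.7 and 57.6 CPM in wild type and 61.1, 56.6, 65.9 and 53.6 CPM in Rfx2-/-. All Rfx2-/- values were inside the wild type range, and the log2 fold change was 0.04 (SE 0.13, adjusted p = 0.869). Cd163, the scavenger receptor for haemoglobin bound to haptoglobin, was the lowest of the 9, with 0.858 to 1.73 CPM in wild type and 1.26, 1.60, 1.98 and 1.37 CPM in Rfx2-/-. It overlapped between genotypes, with wild type replicate 3 as the highest of its group (log2 fold change 0.46, SE 0.27, adjusted p = 0.291).

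Csf1r and Adgre1 define the macrophage lineage. Csf1r, which encodes the receptor for the growth factors CSF1 and IL-34, held 26.5, 19.3, 28.9, 17.6 and 16.4 CPM in wild type and 20.9, 13.6, 27.7 and 17.7 CPM in Rfx2-/-. Here replicate 2 was the lowest of all libraries, and the log2 fold change was -0.12 (SE 0.23, adjusted p = 0.760 with edgeR). Of its exon sequence 16.43% of windows are shared with the overlapping gene Hmgxb3, where the authors left reads out. Adgre1, the F4/80 antigen of mature mouse macrophages, held 6.04, 5.65, 7.25, 7.45 and 5.61 CPM in wild type and 7.21, 6.08, 7.29 and 5.5 CPM in Rfx2-/-. Neither genotype stood above the other, with a log2 fold change of 0.03 (SE 0.17, adjusted p = 0.930).

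C1qa, C1qb and C1qc encode the 3 chains of C1q, the first component of the classical complement pathway, and sit beside each other on chromosome 4 (chr4:136880129-136898803 on the reverse strand, GRCm38). C1qa held 11.4, 8.67, 9.51, 7.15 and 7.10 CPM in wild type and 9.90, 33.4, 12.4 and 12.4 CPM in Rfx2-/-. C1qb held 13.3, 10.1, 9.24, 8.70 and 11.2 CPM in wild type and 8.10, 30.6, 13.7 and 8.70 CPM in Rfx2-/-. C1qc held 11.5, 7.59, 8.98, 6.56 and 7.33 CPM in wild type and 7.64, 33.1, 10.2 and 9.88 CPM in Rfx2-/-. For each chain replicate 2 was the highest of all 9 libraries, and the other 3 Rfx2-/- libraries overlapped with wild type.

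The log2 fold change of C1qa was 0.95 (SE 0.33, adjusted p = 0.0867 with edgeR), the largest of the 9. It was 0.53 (SE 0.35, adjusted p = 0.333) for C1qb and 0.85 (SE 0.39, adjusted p = 0.178) for C1qc. Without replicate 2 these became 0.40 for C1qa (SE 0.17, adjusted p = 0.152), -0.05 for C1qb (SE 0.20, adjusted p = 0.897) and 0.13 for C1qc (SE 0.19, adjusted p = 0.702). All 3 chains have under 1.3 kb of exons, the class in which replicate 2 was high. With the length trend of each library removed, the log2 fold change was 0.68 for C1qa, 0.27 for C1qb and 0.57 for C1qc.

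**Figure D2:**
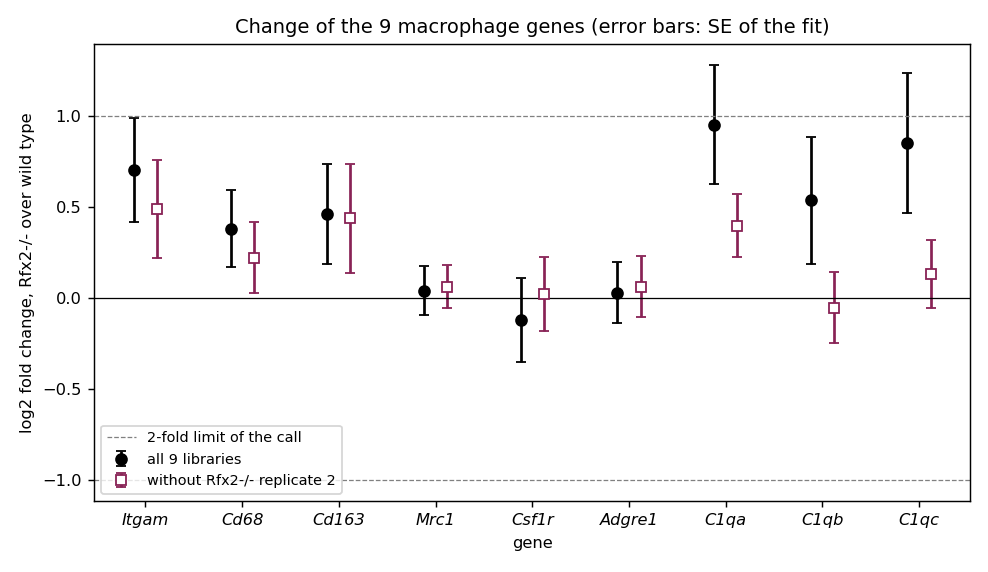
Log2 fold change of the 9 macrophage genes, Rfx2-/- over wild type, with the SE of the fit as error bars, for all 9 libraries (circles) and without Rfx2-/- replicate 2 (squares). The values of the C1q chains lie at 0.53 to 0.95 with all libraries and at -0.05 to 0.40 without that library, while those of Mrc1, Csf1r and Adgre1 lie between -0.12 and 0.06 in both.

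The libraries did not order Itgax and the other members alike. The ratio of Itgax to Itgam reads was 0.739, 0.353, 0.791, 0.818 and 0.481 in wild type and 5.46, 1.84, 5.59 and 8.33 in Rfx2-/-. Itgax was thus below Itgam in each wild type library and above it in each Rfx2-/- library. The 9 macrophage genes summed to 109 to 143 CPM in wild type and to 123, 187, 148 and 116 CPM in Rfx2-/-. Relative to that sum, Itgax was 0.413 to 1.58% in wild type and 13.4, 4.48, 11.8 and 14.1% in Rfx2-/-. Rfx2-/- replicate 4 had the lowest sum of its group and the highest Itgax share, and replicate 2 the highest sum and the lowest share. The summed C1q chains were 22.4 to 36.2 CPM in wild type and 25.6, 97.0, 36.3 and 31.0 CPM in Rfx2-/-. Replicate 2, with the most C1q, had the least Itgax of the 4. Its median log2 deviation was 0.67 over genes with under 1.3 kb of exons, the class of the C1q chains. Over genes with 4 to 5.5 kb, the class of Itgax, it was -0.31. The part of gene length in this order was not tested. These ratios rest on the Itgax values that chose the gene and were not tested.

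**Figure D3:**
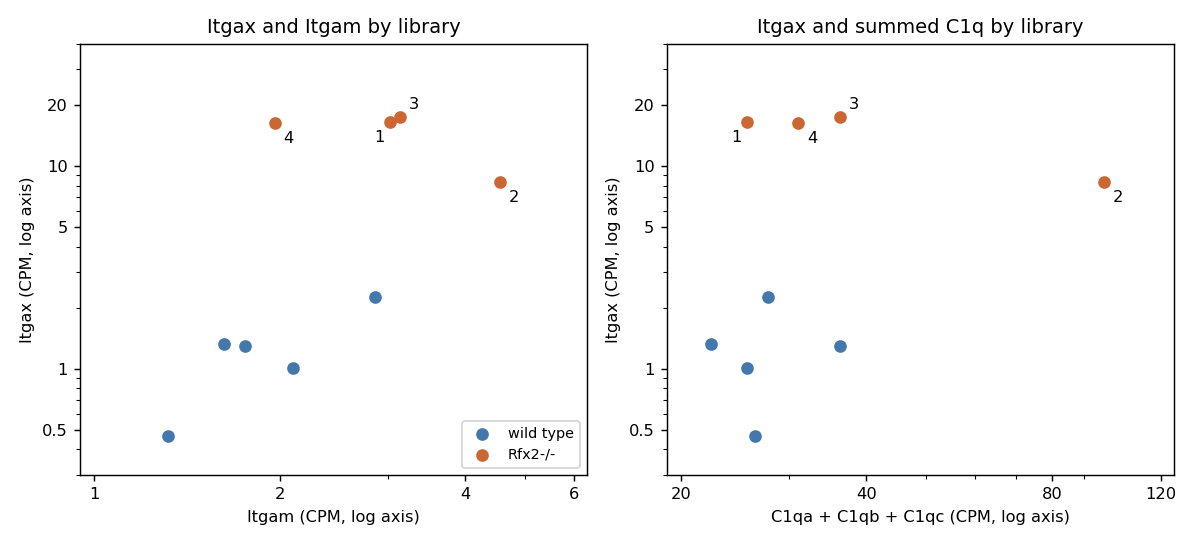
Itgax (vertical axes) against Itgam and against the sum of C1qa, C1qb and C1qc (horizontal axes), in CPM on log axes, 1 point per library, with the numbers of the Rfx2-/- replicates. Rfx2-/- replicates 1, 3 and 4 lie at 16.4 to 17.5 CPM of Itgax with Itgam and C1q levels that wild type libraries also have or nearly have, and replicate 2 lies to the right and lower. Replicate 2 also stood apart by gene length, and the part of length in its place here was not tested.

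Across the 9 libraries the Pearson correlation of log2(CPM + 0.5) with Itgax was 0.67 for Cd163, 0.65 for Itgam, 0.50 for C1qa, 0.48 for Cd68, 0.33 for C1qc, 0.31 for Mrc1, 0.24 for Adgre1, 0.14 for C1qb and 0.02 for Csf1r. These are descriptions over points that share their genotype. Of the 12900 genes with a mean of at least 50 counts, 7.13% had a higher correlation than Cd163 and 49.7% a higher one than Csf1r. The 5 genes most like Itgax were Tnfrsf21 (0.98), Myof (0.98), Ptprk (0.98), Sv2b (0.97) and Ddx31 (0.97). Tnfrsf21, which encodes the death receptor DR6, held 6.50, 6.19, 9.44, 8.63 and 6.71 CPM in wild type and 95.2, 65.4, 98.1 and 110 CPM in Rfx2-/-. Like Itgax it was lowest in replicate 2 among the Rfx2-/- libraries. Ptprk, a receptor tyrosine phosphatase, held 5.58 to 9.44 CPM in wild type and 34.0, 23.5, 25.7 and 28.7 CPM in Rfx2-/-. Sv2b, a glycoprotein of synaptic vesicles, held 3.36 to 5.12 CPM in wild type and 26.5, 14.0, 20.6 and 24.1 CPM in Rfx2-/-. Myof, a membrane repair protein, held 6.81 to 10.7 CPM in wild type and 14.6 to 27.5 CPM in Rfx2-/-, and Ddx31, an RNA helicase, 14.4 to 18.2 and 24.9 to 42.1 CPM. None of the 5 is a macrophage marker of the lists used here. The ranking rests on the Itgax values that chose the gene and favours genes with a large difference between genotypes. All 5 were called higher and none of the 9 members was. It therefore cannot tell whether Itgax moved with macrophage genes. Without replicate 2, 2 of the 5 stayed among the 5 most alike.

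After the genotype means were subtracted, the 5 genes most like Itgax were Arhgap10 (0.98), Etfdh (0.93), Osbpl8 (0.93), Aldh7a1 (0.92) and Bcar3 (0.92). On this measure Csf1r, Adgre1 and Mrc1 had correlations of 0.70, 0.58 and 0.55, Cd163 0.35 and Itgam 0.11, while Cd68 had -0.34 and C1qa, C1qb and C1qc -0.48, -0.56 and -0.46. The members thus fell on both sides of 0, and the sides differed in gene length. Those above 0 have 3.238 kb of exons or more, and those below 0 have 1.257 kb or less. Itgax has 4.333 kb. The part of gene length in these correlations was not tested. Among the Rfx2-/- libraries, replicate 2 lay farthest from the group mean for Itgax and for each C1q chain, in opposite directions.

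Per kilobase of exon the order of the members in wild type, in RPKM (SD, n = 5), was Mrc1 (10.7 ± 1.38), C1qb (9.64 ± 1.68), C1qa (8.43 ± 1.72), C1qc (6.97 ± 1.61), Csf1r (4.36 ± 1.13), Cd68 (3.31 ± 0.62), Adgre1 (1.98 ± 0.27), Itgam (0.39 ± 0.12), Itgax (0.29 ± 0.15) and Cd163 (0.25 ± 0.08). Neighbours in this order from Mrc1 to C1qc, and from Itgam to Cd163, differed by less than the SD of either. Csf1r and Cd68 differed by less than the SD of Csf1r and by more than that of Cd68. In Rfx2-/- Itgax was 3.39 ± 0.98 RPKM (n = 4), between Csf1r at 4.01 ± 1.19 and Adgre1 at 2.01 ± 0.27.

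The beta2 chain that Itgax needs at the cell surface did not pass the test. Itgb2 held 2.37, 1.70, 2.79, 1.92 and 2.73 CPM in wild type and 2.16, 2.94, 3.07 and 2.29 CPM in Rfx2-/-, with overlap (log2 fold change 0.17, SE 0.22, adjusted p = 0.644 with edgeR). Per read of Itgb2 there were 0.273 to 0.810 reads of Itgax in wild type and 7.65, 2.84, 5.71 and 7.14 in Rfx2-/-. Itgal, the alpha chain of the lymphocyte integrin LFA-1, held 1.60 to 3.17 CPM in wild type and 1.67 to 4.48 CPM in Rfx2-/- (log2 fold change 0.25, SE 0.30, adjusted p = 0.620). Itgad held 20.3, 21.8, 9.51, 19.2 and 18.3 CPM in wild type and 13.1, 17.1, 14.4 and 11.4 CPM in Rfx2-/-. Its log2 fold change was -0.35 (SE 0.23, adjusted p = 0.336), and at 3.95 RPKM it was the highest alpha chain of the family in wild type. Itgax shares 8.88% of its windows of 50 bases with Itgad and none with other genes, and Itgad was not higher in any Rfx2-/- library than the highest wild type library.

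The genes around Itgax were compared in the same fit. Of 20 other annotated genes of the table within 250 kb, 14 were tested and 0 were called by edgeR or by DESeq2, with log2 fold changes from -0.70 to 0.90 and adjusted p-values of 0.0784 or more. At an unadjusted p under 0.05, 3 were higher and 2 lower, where 13.9% of all genes tested were higher and 13.7% lower. The nearest tested genes were Itgad, 3.72 kb after Itgax, and Itgam, 11.1 kb before it. Beyond them, Pycard, the inflammasome adaptor ASC, had a log2 fold change of 0.50 (SE 0.38, adjusted p = 0.414) and 9130023H24Rik one of -0.49 (SE 0.21, adjusted p = 0.159).

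**Figure D4:**
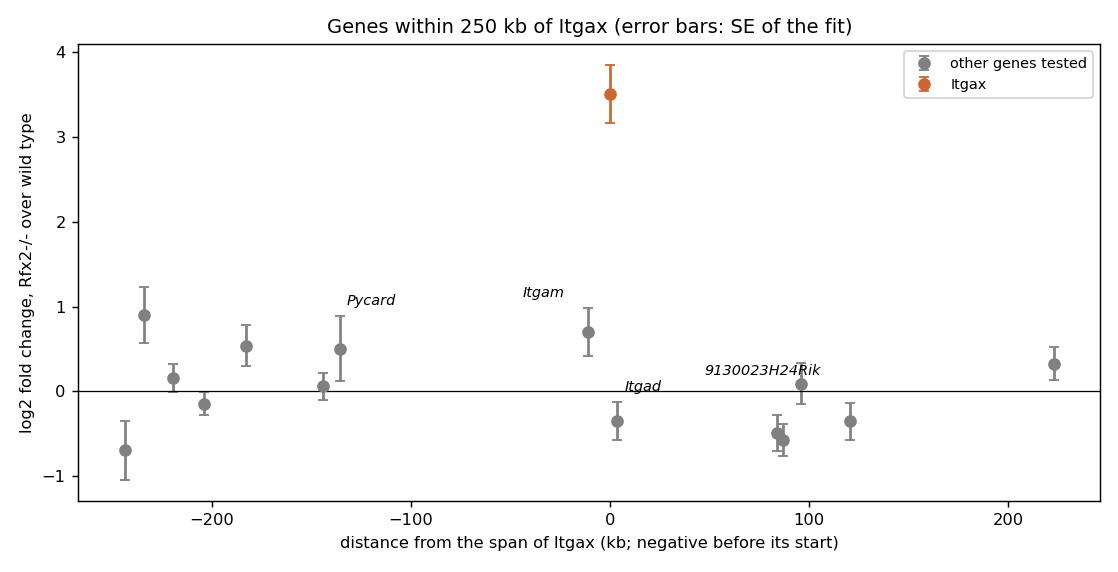
Log2 fold change of the tested genes within 250 kb of Itgax, Rfx2-/- over wild type, by distance from the span of Itgax in kb, with the SE of the fit as error bars. Itgax lies at 3.50 by the choice of the gene, and the 14 other genes lie between -0.70 and 0.90.

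Further genes of macrophages gave no call with edgeR. Of 24 listed, 21 were tested and 0 were called, with 5 higher and 0 lower at an unadjusted p under 0.05. Over all genes tested, 13.9% were higher and 13.7% lower at that p, shares that also belong beside the counts of the lists below. The median log2 fold change of the further macrophage genes was 0.33 (0.14 without replicate 2). DESeq2 called 2 of them higher, Ccr2 and Msr1. Ccr2, the receptor that draws monocytes out of blood, held 0.765, 0.619, 0.798, 0.737 and 1.17 CPM in wild type and 2.06, 5.68, 4.29 and 0.981 CPM in Rfx2-/-. Replicate 4 was inside the wild type range, although its Itgax was 16.4 CPM (log2 fold change 1.97, SE 0.45, adjusted p = 0.0138 with edgeR and 0.000567 with DESeq2). With edgeR, Ccr2 passed the call limits with scaling by total counts (adjusted p = 0.00988), with every gene of at least 1 count kept (adjusted p = 0.00879), without Rfx2-/- replicate 1 (adjusted p = 0.00838) and without replicate 4 (adjusted p = 0.00218). Without Rfx2-/- replicate 2 the log2 fold change of Ccr2 was 1.56, and it did not pass with edgeR. Msr1, a scavenger receptor for modified lipoproteins, held 7.05 to 12.8 CPM in wild type and 9.03, 26.4, 19.5 and 33.6 CPM in Rfx2-/-. It was not raised in replicate 1 (log2 fold change 1.08, SE 0.31, adjusted p = 0.0452), and without that library it passed (log2 fold change 1.38, adjusted p = 0.00122). Without Rfx2-/- replicate 4 its log2 fold change was 0.84. The list summed to 388 to 537 CPM in wild type and 338 to 607 CPM in Rfx2-/-, most of it Aif1, the allograft inflammatory factor, at 184 to 348 and 175 to 329 CPM. At 249 RPKM in wild type Aif1 was far above every other gene of the macrophage lists named here, and above Acrv1 of spermatids at 136 RPKM. Which cells of the testis gave the Aif1 reads was not measured.

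Besides the C1q chains, Lyz2 and Cd52 stood out in Rfx2-/- replicate 2 and are named for that. Lyz2, lysozyme of macrophages and neutrophils, was 93.9 CPM there and 9.73 to 26.6 CPM in the other 8 libraries. Cd52, a small surface glycoprotein of leukocytes and of the epididymis, was 41.4 CPM there and 0.147 to 1.40 CPM in the others. Aif1, with 1.144 kb of exons shorter than Lyz2 with 1.316 kb, was inside the wild type range there, at 329 CPM. The part of length and of other cells in these values was not tested.

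Dendritic cells are the cells for which Itgax is best known as a marker. Of 14 listed, 8 were tested, 0 were called higher and 1, Irf4, was called lower, against 3.68% of all genes tested called lower. The median log2 fold change was 0.00. At an unadjusted p under 0.05, 1 was higher and 2 lower, where 13.9% of all genes were higher and 13.7% lower. Irf4, a transcription factor of dendritic cells and lymphocytes, held 1.91, 3.41, 1.2, 1.99 and 2.65 CPM in wild type and 0.232, 0.134, 0.204 and 0.262 CPM in Rfx2-/-, where 2 to 7 reads were counted. It fell by 3.34 on the log2 scale (SE 0.38, adjusted p = 9.63e-05 with edgeR), and no Rfx2-/- library reached the wild type range. Ccr7, the homing receptor of mature dendritic cells and T cells, held 0.918 to 2.11 CPM in wild type and 1.59, 3.74, 3.75 and 3.93 CPM in Rfx2-/- (log2 fold change 1.06, SE 0.31, adjusted p = 0.0495). Without Rfx2-/- replicate 1 it passed (log2 fold change 1.34, adjusted p = 0.00509), and without wild type replicate 1 its log2 fold change was 0.93. Clec9a and Cd209a, markers of dendritic cell subsets, were at 0.147 CPM or less in all libraries, with 4 reads or fewer in each. Batf3 of the same list, also not tested, held 0 to 0.612 CPM in wild type and 0.613 to 0.736 CPM in Rfx2-/-. These were 0 to 8 and 9 to 19 reads.

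MHC class II genes, through which dendritic cells and macrophages present antigen, had the highest median of the lists, 0.81 over 7 of 10 tested, and all 7 values were above 0. With edgeR 0 of 7 were called, and 3 were higher at an unadjusted p under 0.05, against 13.9% of all genes tested. DESeq2 called 1, H2-DMb1, a chain of the peptide loading factor. It held 0.465 to 1.40 CPM in wild type and 2.19, 2.94, 2.52 and 1.70 CPM in Rfx2-/-, without overlap (log2 fold change 1.24, SE 0.30, adjusted p = 0.0180 with edgeR, and 0.00963 with scaling by total counts). Cd74, the invariant chain, held 1.86 to 9.51 CPM in wild type and 6.61, 6.49, 24.3 and 7.07 CPM in Rfx2-/-. It was high in replicate 3 alone (log2 fold change 0.78, SE 0.48, adjusted p = 0.306). The list summed to 17.4 to 31.8 CPM in wild type and 32.2 to 65.3 CPM in Rfx2-/-.

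**Figure D5:**
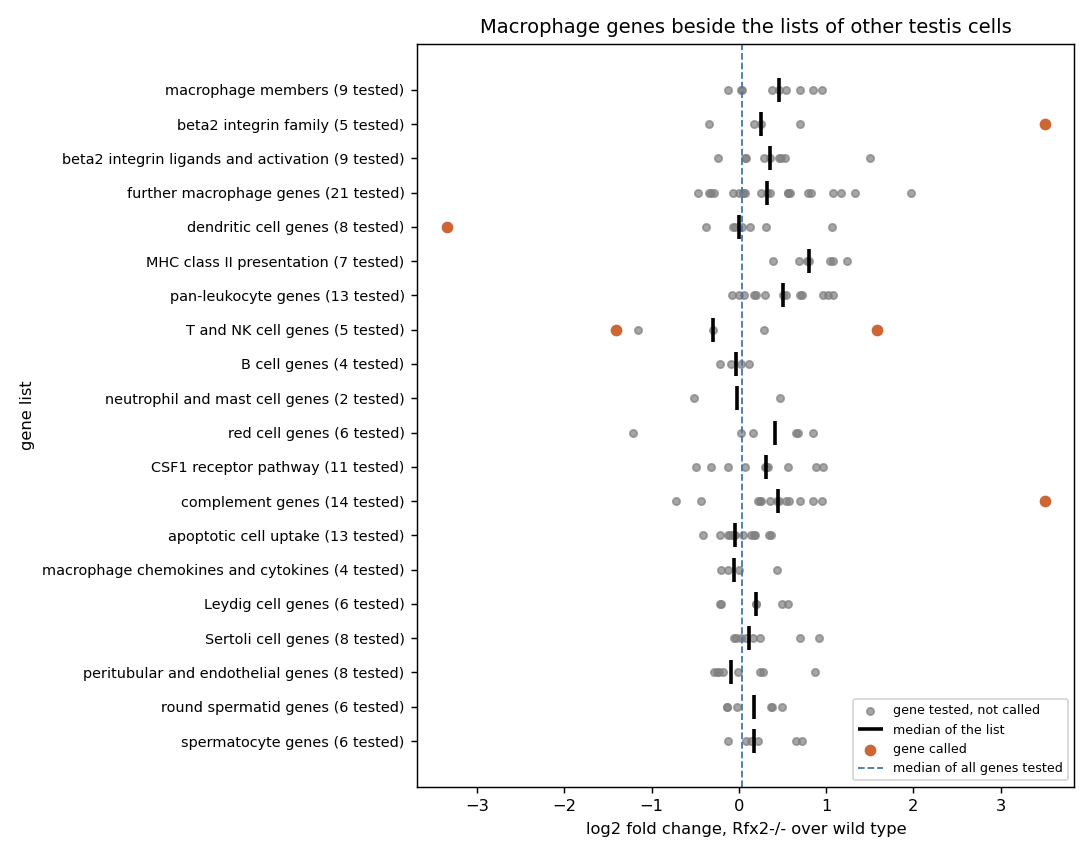
Log2 fold change of each tested gene (points), Rfx2-/- over wild type, for the 9 macrophage genes and 19 further gene lists, with the median of each list (bars) and of all genes tested (dashed line, 0.03). The genes called (orange) are Itgax, which appears in the integrin and complement lists and was chosen for this value, Irf4, Lck and Trac.

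Genes of the pan-leukocyte list gave 0 of 13 called by edgeR and by DESeq2. The list includes Tyrobp, Fcer1g and Cybb, which not all leukocytes express. At an unadjusted p under 0.05, 4 of the 13 were higher, Tyrobp and Fcer1g among them, against 13.9% of all genes tested. The median was 0.50 (0.19 without replicate 2). Ptprc (CD45) held 1.24 to 2.11 CPM in wild type and 2.22 to 2.94 CPM in Rfx2-/-, a log2 fold change of 0.72 (SE 0.22, adjusted p = 0.0563 with edgeR). Fcer1g, the shared gamma chain of Fc receptors, held 1.24 to 3.46 CPM in wild type and 3.49, 8.42, 5.04 and 3.34 CPM in Rfx2-/- (log2 fold change 1.02, SE 0.33, adjusted p = 0.0696, and 0.66 without replicate 2). The pathway of the CSF1 receptor gave 0 of 11 called by either tool, with 3 higher at an unadjusted p under 0.05 and a median of 0.30. Its ligand Csf1 held 8.6 to 10.7 CPM in wild type and 15.8, 7.02, 15.4 and 8.70 CPM in Rfx2-/-, above wild type in replicates 1 and 3 and not in the others (log2 fold change 0.31, SE 0.24, adjusted p = 0.419). Among 14 tested complement genes edgeR called none apart from Itgax, listed there as a complement receptor chain. Itgax was chosen for its value, so its call is no test. The median of the list, which includes Itgax, was 0.45 (0.27 without replicate 2). Genes for the uptake of apoptotic cells, among them Gas6, Axl and Mertk, gave 0 of 13 called by either tool and a median of -0.04, with 0 higher and 1 lower at an unadjusted p under 0.05. Without replicate 2 the median was 0.14, with 3 higher and 1 lower. Of 9 tested ligands and activators of beta2 integrins edgeR called 0, with 3 higher at an unadjusted p under 0.05 and a median of 0.36. DESeq2 called 1, Fgb, the fibrinogen beta chain, at 0.306 to 1.33 CPM in wild type and 1.5 to 2.29 CPM in Rfx2-/- (log2 fold change 1.51, SE 0.37, adjusted p = 0.0213 with edgeR). Without wild type replicate 4 it passed with edgeR too (log2 fold change 1.94, adjusted p = 0.00344). Its log2 fold change was 1.33 without wild type replicate 1. Of 14 macrophage chemokines and cytokines, 4 were tested, and 0 were called by either tool or had an unadjusted p under 0.05.

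Markers of other leukocytes ranged from 0 reads to levels above some of the members. S100a8 and S100a9 of neutrophils, Cd8a of T cells and the cytokine Il10 had 0 reads in all 9 libraries. Of the T and NK cell genes 5 of 14 were tested, and 1 was called higher and 1 lower, against 0.826% and 3.68% of all genes tested. The list summed to 15.4 to 21.7 CPM in wild type and 9.90 to 19.0 CPM in Rfx2-/-. Trac, the constant part of the T cell receptor alpha chain, rose from 0.67 ± 0.29 CPM (SD, n = 5) to 2.06 ± 0.33 CPM (SD, n = 4), by 1.58 on the log2 scale (SE 0.30, adjusted p = 0.00471 with edgeR). Lck, a kinase of T cells, fell by 1.41 on the log2 scale (SE 0.27, adjusted p = 0.00457), from 2.27 ± 0.64 CPM (SD, n = 5) to 0.852 ± 0.097 CPM (SD, n = 4). Both calls are near the limit. That of Trac was lost without wild type replicate 1, 2, 4 or 5 or Rfx2-/- replicate 3 or 4 (adjusted p = 0.0126 to 0.0177), and that of Lck without wild type replicate 1, 2 or 3 or Rfx2-/- replicate 1, 3 or 4 (adjusted p = 0.013 to 0.0230) and with scaling by total counts (0.0118). Cd2, an adhesion molecule of T cells, had too few reads to be tested, with 5 to 16 per wild type library and 0 to 2 per Rfx2-/- library. Kit, which marks mast cells and is also expressed by Leydig cells and spermatogonia, held 29.6 to 44.0 CPM in wild type and 11 to 35.7 CPM in Rfx2-/-. Pax5, a B cell transcription factor, held 6.98 to 12.2 and 3.88 to 10.9 CPM. In both genes replicate 2 was the lowest of all libraries. B cell genes (4 of 8 tested) and neutrophil and mast cell genes (2 of 13) gave 0 called by either tool and 0 with an unadjusted p under 0.05.

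Cell types that lie beside macrophages gave medians near that of all genes. On the log2 scale the median change was 0.19 over the 6 Leydig cell genes and 0.12 over the 8 Sertoli cell genes, with 0 called in each by edgeR and by DESeq2. Without Rfx2-/- replicate 2 they were -0.02 and 0.15. Amh, the anti-Müllerian hormone of immature Sertoli cells, was higher in all 4 Rfx2-/- libraries, with 4.72 to 6.42 CPM in wild type and 7.21, 15.2, 9.81 and 11 CPM in Rfx2-/-. Its log2 fold change was 0.92 (SE 0.21, adjusted p = 0.0145 with edgeR), under the 2-fold limit, and it passed with scaling by total counts (1.06, adjusted p = 0.00693) and without Rfx2-/- replicate 1 (1.11, adjusted p = 0.00245). Without Rfx2-/- replicate 2 the log2 fold change of Amh was 0.71. The 8 genes of peritubular and endothelial cells had a median of -0.10 with 0 called by either tool, and of 0.11 without replicate 2. Among them Cnn1, a calponin of smooth muscle, had a log2 fold change of 0.88 (SE 0.27, adjusted p = 0.0553), and passed without Rfx2-/- replicate 1 (1.12, adjusted p = 0.00578). Without Rfx2-/- replicate 2 the log2 fold change of Cnn1 was 0.58. At an unadjusted p under 0.05 there were 1, 2 and 1 higher in these lists and 0 lower, where 13.9% of all genes tested were higher and 13.7% lower. The 6 round spermatid and the 6 spermatocyte genes had medians of 0.17 with 0 called by either tool, and 3 and 2 higher at an unadjusted p under 0.05. Without replicate 2 these medians were 0.15 and 0.07. Red cell genes, a sign of blood in the tissue, were at 29.3 to 54.0 CPM in wild type and 27.0 to 73.1 CPM in Rfx2-/-, with replicate 2 the highest. The 6 tested had a median of 0.41 with 0 called by either tool, 1 higher and 1 lower at an unadjusted p under 0.05, and of 0.14 without replicate 2, with 0 higher and 1 lower. The lower one, Slc4a1, the anion exchanger of red cells, held 0.936 to 2.13 CPM in wild type and 0.468 to 0.697 CPM in Rfx2-/- (log2 fold change -1.21, SE 0.31, adjusted p = 0.0242). The part of blood in the values of replicate 2 was not tested.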

How the data were processed

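Testis RNA was measured in 5 wild type and 4 Rfx2-/- mice, grouped by the genotype in the labels. The members and all gene lists were chosen with earlier results of these data known. The authors deposited raw read counts per gene, in whole numbers without normalisation. By their methods, single reads of 50 bases from TruSeq libraries were mapped to GRCm38 with STAR, reads with several positions were discarded, and featureCounts left out reads over exons of different genes. The submitters' processing notes name STAR 2.4, featureCounts 1.4.6 and CASAVA 1.8.2. The use of strand is not given in the sources used here. Genes that overlap others that were counted, or share sequence with other positions of the genome, therefore lose reads. Floors cover counting error only, while the SE of the fit and the SD also include variation between mice.

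Gene names were taken from GENCODE M21 for 96.6% of the IDs. Genotypes were compared by quasi-likelihood in edgeR 4.0.16 and R 4.3.3 (robust, TMM, filterByExpr, no covariate), and the p-values of 15613 genes were adjusted together (Benjamini-Hochberg). Calls needed an adjusted p at or under 0.01 and over 2-fold. SE values are those of the fitted log2 fold change. Alternatives were DESeq2 1.42.0, other scalings, filters and limits, removal of each library's length trend, thinning of Rfx2-/- replicate 1 and leaving out each library. The procedure was tested on simulated data. RPKM used TMM-scaled counts and exon length. Sequence sharing was measured over windows of 50 bases of all transcripts.

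Named were the members, Rfx2, the integrins of the family, the nearest tested genes on each side of Itgax, called genes of the lists, examples with high levels, genes whose call changed with an alternative, and the genes most like Itgax by correlation. Lyz2, Cd52, Ptprc, Csf1, Acrv1, Axl, Mertk, Clec9a, Cd209a, Batf3, S100a8, S100a9, Cd8a and Il10 were named after their values were seen.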

Additional observations from a re-analysis of the deposited data

Results flagged for a closer look

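Within each genotype, a library was singled out when its gap to the nearest other library was large against the range of its group (Dixon's limits for 4 or 5 samples). Of 102 groups of values compared, chance would give about 1 in 20, or 5.1, if they were independent and not chosen by their values. They were neither, because sums share genes with single values and some genes were named because an alternative fit changed their call. The 14 groups that had such a library therefore cannot be set against 5.1. Rfx2-/- replicate 2 was singled out in 5 of them, with Itgax low at 8.36 CPM (others 16.4 to 17.5), and with C1qa at 33.4 (others 9.90 to 12.4), C1qc at 33.1 (others 7.64 to 10.2), the summed C1q chains at 97.0 (others 25.6 to 36.3) and Ctss, the lysosomal protease cathepsin S, at 19.6 (others 5.38 to 7.5). Wild type replicate 1 was also high for Ctss, at 5.89 CPM (others 3.66 to 4.19). Ctss had a log2 fold change of 1.17 (SE 0.36, adjusted p = 0.0575 with edgeR), and 0.56 without Rfx2-/- replicate 2.

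Wild type replicate 3 was low for Itgad, at 9.51 CPM (others 18.3 to 21.8), for 9130023H24Rik, at 14.4 CPM (others 23.6 to 26.6), and for the summed beta2 integrin family, at 19.0 CPM (others 27.2 to 28.6), most of which is Itgad. It was high for Cd163, at 1.73 CPM (others 0.858 to 1.08), for the summed ligands and activators of beta2 integrins, at 265 CPM (others 238 to 245), and for the summed Sertoli cell genes, at 1519 CPM (others 1242 to 1291). It also held the highest wild type Itgax, 2.26 CPM. Ccr7 was low in Rfx2-/- replicate 1, at 1.59 CPM (others 3.74 to 3.93). The summed T and NK cell genes were high in wild type replicate 2, at 21.7 CPM (others 15.4 to 16.6).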

How the results depend on the processing

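The count of 0 called among the 9 macrophage genes and among the neighbours of Itgax was the same under every alternative run. Over the fits that left out 1 library, Itgax kept a log2 fold change of 3.30 to 3.87. Its difference from the median of the 9 was then 2.85 to 3.56. Scaling by total counts moved the median of all genes from 0.03 to 0.16, and those of the beta2 integrin ligands and of the dendritic cell genes to 0.48 and 0.12. Called genes numbered 129 higher and 575 lower, with 211 higher under DESeq2, 262 higher with an unadjusted p, and 544 higher and 1142 lower at an adjusted p of 0.05 with no fold limit. Leaving out 1 library at a time gave 92 to 175 higher and 447 to 632 lower. The medians then ranged from 0.13 to 0.59 for the 9 macrophage genes, 0.27 to 0.49 for the beta2 integrin ligands, 0.62 to 1.11 for MHC class II and 0.19 to 0.68 for pan-leukocyte genes. The lowest was without Rfx2-/- replicate 2 for the macrophage (0.13) and pan-leukocyte genes (0.19), and the latter was 0.29 without replicate 3. MHC class II was highest without replicate 1. When 1 library was left out, the sign changed for some genes, with ranges of -0.02 to 0.13 for Adgre1, -0.29 to 0.04 for Csf1r, -0.01 to 0.45 for Itgal and 0.00 (below 0 before rounding) to 0.16 for Mrc1. C1qb ranged from -0.05 to 0.78 and was below 0 only without Rfx2-/- replicate 2. The cause was not tested. The comparison of likeness to Itgax without replicate 2, where 2 of 5 genes stayed, was chosen after seeing the data. No paired analysis was possible because the labels give animal numbers without litters. The paper reports using littermates of the same age where it could, so litter was not accounted for here.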
